A study of Mus musculus with 24 samples.

Results

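This report describes *Nnt* and *Gcnt7*, 2 of the 45706 genes in the deposited table, in bulk RNAseq of the mouse olfactory epithelium (OE). They were chosen by measured values: in each, a *WT* group stood apart from the other groups, and *Nnt* is known to carry a deletion in the C57BL/6J strain. The levels of both genes by genotype and age are therefore a description, without a test. The 24 mice were 12 *WT* and 12 *iRhom2-/-* mice of 4 ages (5, 8, 10 and 30 weeks), with 3 mice per age and genotype. The *iRhom2-/-* mice carry the KOMP tm1b allele of *Rhbdf2*, the gene for iRhom2, in which a *LacZ* reporter is read from the iRhom2 promoter. All mice are labelled as of mixed strain. For the *iRhom2-/-* line the study's methods give a mix of 2 strains, C57BL/6 and another that is not named here. The file used here gives no DNA genotype for *Nnt*, and no mouse of known *Nnt* copy number is among the libraries. Of 3 mice, 1 was female in *WT* and *iRhom2-/-* at 10 weeks and in *WT* at 8 weeks, and the other mice were male.

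Of the 24 columns of estimated counts, 12 named 1 mouse each, of 10 or 8 weeks. The other 12 columns, 6 per genotype, gave the genotype only. By exclusion they hold the mice of 5 and 30 weeks, but the age of each column is unknown, so they are called *WT* or *iRhom2-/-* columns 7 to 12. The labels give the mice of 10 weeks, the mice of 8 weeks and the remaining mice as separate submissions to the sequencing core, so age and submission cannot be told apart. Library totals ran from 25333822 to 48660394 counts. Levels are given in counts per 1000000 (CPM) after TMM scaling, which sets libraries on 1 scale by the genes they share. *Rhbdf2* was at 19.3 to 24.95 CPM in the 12 *WT* libraries and at 7.19 to 13.4 CPM in the 12 *iRhom2-/-* libraries, so every library followed its genotype label. Markers of mature olfactory sensory neurons (OSNs) were summed to 8248 CPM or more in each library. In the second *iRhom2-/-* mouse of 10 weeks, 13.6% of all counts fell on *Bpifb9b*, which encodes a secreted protein of nasal glands.

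*Nnt* encodes nicotinamide nucleotide transhydrogenase, an enzyme of the inner mitochondrial membrane. It uses the proton gradient to pass hydride from NADH to NADP+, and the NADPH it makes feeds the glutathione and thioredoxin systems that remove peroxide. C57BL/6J mice carry an in-frame deletion of several exons of *Nnt* and lack the protein, while C57BL/6N mice carry the intact gene. *Gcnt7* encodes a member of the glucosaminyl (N-acetyl) transferase family, whose better known members add branches to O-linked glycans and to poly-lactosamine chains in the Golgi.

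In GRCm38, *Nnt* (ENSMUSG00000025453) lies on the minus strand of chromosome 13, from 119335448 to 119408997. Its longest coding transcript in GENCODE has 17 exons, 3464 bases and 835 codons. The GRCm38 assembly was made from C57BL/6J, so the exons missing in that strain are not in this model and reads from them could not be assigned to it. A count for *Nnt* is therefore a count over exons that both alleles share, and a mouse with the deletion on both copies need not be at 0. *Gcnt7* (ENSMUSG00000074569) lies on the minus strand of chromosome 2, from 172450313 to 172458596, with 4 exons and 2220 bases in its longest transcript. The whole gene sits within *Rtf2*, which runs from 172440556 to 172469908 on the plus strand and encodes a replication termination factor. The library kit keeps strand, but whether the counting used strand is not given in the sources used here, so reads of *Gcnt7* and *Rtf2* may not be fully separated.

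The promoter of *Gcnt7* is shown because the genes whose levels ran most like it include odorant receptors, as given below. These are the 250 bases before the start of *Gcnt7*, from RefSeq GRCm38.p6, chr2:172458597-172458846, minus strand, with the capitals marking a match to the motif TCCC, any 2 bases, GGGA, which is bound by the EBF factors of OSNs:
Gcnt7: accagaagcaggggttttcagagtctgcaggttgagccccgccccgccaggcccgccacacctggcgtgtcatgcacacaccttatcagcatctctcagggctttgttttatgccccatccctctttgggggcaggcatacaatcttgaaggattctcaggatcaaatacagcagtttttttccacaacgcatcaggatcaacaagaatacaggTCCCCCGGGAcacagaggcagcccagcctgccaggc
The motif reads the same on both strands and was searched for after the sequence had been seen. It began 36 bases before the start of the gene. Of 32851 promoter windows of 250 bases, 256 (0.779%) held it. The match is a description of these letters and not a measured binding site.

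*Nnt* was lowest in the *WT* mice of 10 weeks. They had 8.74, 8.09 and 7.30 CPM, from 272, 255 and 244 counts. The *iRhom2-/-* mice of the same age had 20.1, 19.7 and 20.9 CPM. The groups of 10 weeks did not overlap, and the *iRhom2-/-* mean of 20.2 ± 0.623 CPM (SD, n = 3) was 2.52-fold the *WT* mean of 8.04 ± 0.720 CPM (SD, n = 3).

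At 8 weeks, *Nnt* was at 18.1, 15.3 and 15.8 CPM in *WT*. The *iRhom2-/-* mice of 8 weeks had 18.9, 18.3 and 17.7 CPM. These groups overlapped, and the *iRhom2-/-* mean of 18.3 ± 0.589 CPM (SD, n = 3) was 1.12-fold the *WT* mean of 16.4 ± 1.46 CPM (SD, n = 3). In *WT* columns 7 to 12 the lowest, median and highest levels were 11.5, 18.2 and 21.6 CPM. In *iRhom2-/-* columns 7 to 12 they were 17.6, 18.9 and 21.4 CPM. The low *Nnt* of the *WT* mice of 10 weeks thus was not seen in *WT* mice of 8 weeks, and *WT* mice of 10 weeks had 49.0% of the mean of *WT* mice of 8 weeks.

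Ordered by mean, *Nnt* rose from *WT* of 10 weeks (8.04 CPM) over *WT* of 8 weeks (16.4 CPM), *WT* columns 7 to 12 (17.6 CPM), *iRhom2-/-* of 8 weeks (18.3 CPM) and *iRhom2-/-* columns 7 to 12 (19.4 CPM) to *iRhom2-/-* of 10 weeks (20.2 CPM). Except for the first step, each group overlapped the next one in this order. The 12 *iRhom2-/-* libraries had a mean of 19.3 ± 1.41 CPM (SD, n = 12), and the 12 *WT* libraries had 14.9 ± 4.90 CPM (SD, n = 12), so most of the spread of *Nnt* was among *WT* libraries.

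**Figure D1:**
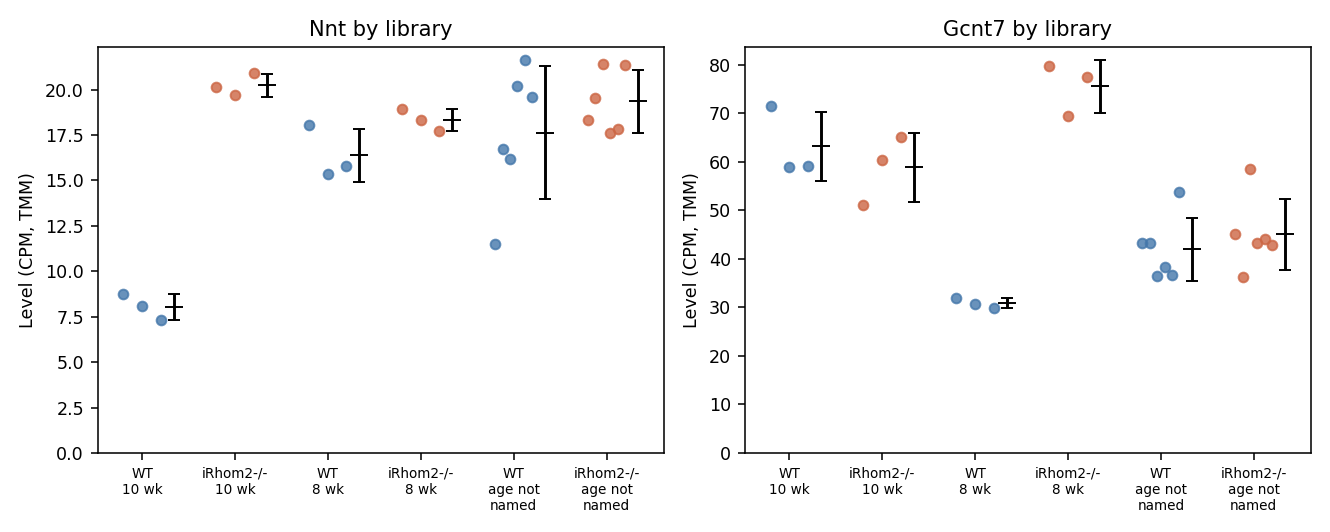
Level of *Nnt* (left) and *Gcnt7* (right) in CPM after TMM scaling in each of 24 libraries, *WT* in blue and *iRhom2-/-* in orange, with the mean and SD of each group in black. *Nnt* is at 7.30 to 8.74 CPM in *WT* mice of 10 weeks, while *Gcnt7* is lowest, at 29.9 to 32.0 CPM, in *WT* mice of 8 weeks.

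To set the levels beside 0, 1 or 2 intact copies, each *WT* library was given as a percentage of the mean of the 12 *iRhom2-/-* libraries, with the exact 95% Poisson interval of its count. Intervals of this kind cover counting error only. The *iRhom2-/-* libraries themselves ran from 91.3% to 111% of their mean. The *WT* mice of 10 weeks were at 45.2% (40.0% to 50.9%), 41.9% (36.9% to 47.3%) and 37.8% (33.2% to 42.8%). The interval of the first of these mice holds 50%, and those of the other 2 lie below it. As the level of 1 intact copy is unknown, 50% is only a mark on the scale. These mice were chosen for their low *Nnt*, so their intervals are a description. The *WT* mice of 8 weeks were at 93.5% (87.2% to 100.1%), 79.4% (73.5% to 85.6%) and 81.9% (75.7% to 88.4%), of which the first lay within the range of the *iRhom2-/-* libraries.

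*WT* column 7 was the 1 library between these levels. It had 340 counts of *Nnt* and 11.5 CPM, which is 59.7% (53.5% to 66.4%) of the *iRhom2-/-* mean, and its interval met neither 50% nor the *iRhom2-/-* range. In the order of all 24 libraries it was 2.79 CPM above the highest *WT* mouse of 10 weeks and 3.8 CPM below the next library. *WT* columns 8 and 9 were at 86.6% (79.0% to 94.6%) and 83.8% (77.2% to 90.8%), and *WT* columns 10, 11 and 12 were at 104.5%, 111.9% and 101.3%.

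No library was near 0 counts of *Nnt*: the lowest had 244 counts, against the 3 counts taken here as the limit that a count of 0 allows. The libraries therefore held a low level in 3 *WT* mice, an intermediate level in 1 *WT* column and higher levels in 20 libraries. Whether any of these levels stand for 0, 1 or 2 intact copies cannot be told from gene counts. The level of a known copy number was not measured, and the counted exons are shared by both alleles. Nor can a difference in copies be told apart from a difference in RNA per copy. The part of copy number was not tested.

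**Figure D2:**
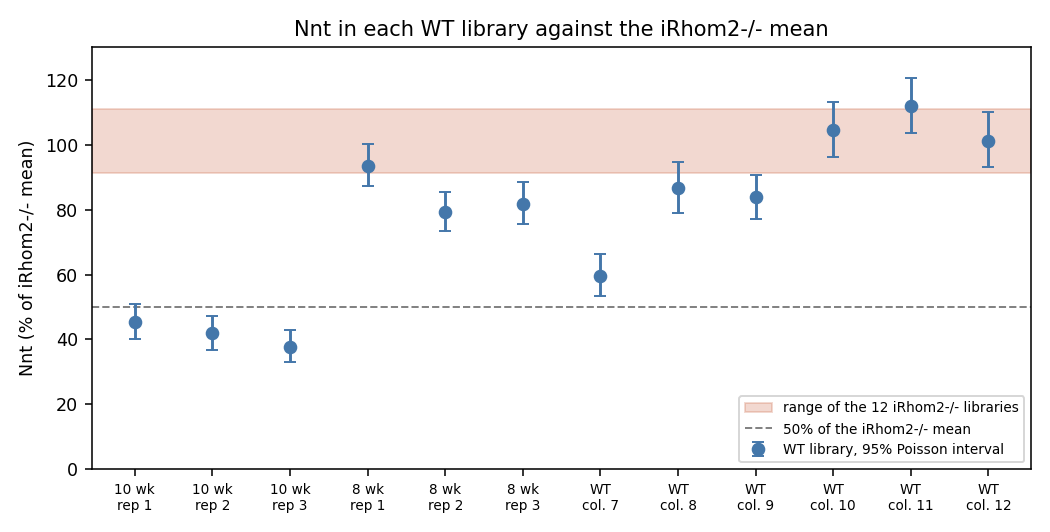
*Nnt* in each *WT* library as a percentage of the mean of the 12 *iRhom2-/-* libraries, with the exact 95% Poisson interval; the band is the range of the *iRhom2-/-* libraries and the dashed line is at 50%. *WT* mice of 10 weeks are at 37.8% to 45.2%, and *WT* column 7 is at 59.7%.

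*Gcnt7* stood apart in another *WT* group. The *WT* mice of 8 weeks had 32.0, 30.8 and 29.9 CPM, from 1468, 1350 and 1226 counts. All 3 were below the other 21 libraries, the lowest of which had 36.3 CPM. The *iRhom2-/-* mice of 8 weeks had 79.8, 69.4 and 77.5 CPM, and the groups of 8 weeks did not overlap. The *iRhom2-/-* mean of 75.5 ± 5.47 CPM (SD, n = 3) was 2.45-fold the *WT* mean of 30.9 ± 1.06 CPM (SD, n = 3).

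At 10 weeks, *Gcnt7* was at 71.4, 59.0 and 59.2 CPM in *WT*. The *iRhom2-/-* mice of 10 weeks had 51.0, 60.3 and 65.1 CPM. The groups overlapped, with means of 63.2 ± 7.14 CPM in *WT* and 58.8 ± 7.17 CPM in *iRhom2-/-* (SD, n = 3 each). The lowest, median and highest levels of *Gcnt7* were 36.5, 40.8 and 53.7 CPM in *WT* columns 7 to 12. In *iRhom2-/-* columns 7 to 12 they were 36.3, 43.7 and 58.5 CPM, so these groups overlapped as well.

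In the order of group means, *Gcnt7* went from *WT* of 8 weeks (30.9 CPM) over *WT* columns 7 to 12 (42.0 CPM), *iRhom2-/-* columns 7 to 12 (45.0 CPM), *iRhom2-/-* of 10 weeks (58.8 CPM) and *WT* of 10 weeks (63.2 CPM) to *iRhom2-/-* of 8 weeks (75.5 CPM). *WT* of 8 weeks and *WT* columns 7 to 12 did not overlap, and every later pair of neighbours in this order did. *WT* column 7, which was low in *Nnt*, had 43.3 CPM of *Gcnt7*, within the range of its group. The *WT* group that was low in *Nnt* was thus among the higher groups in *Gcnt7*. Per kb of the longest transcript, the mean level over all libraries was 4.94 CPM per kb for *Nnt* and 22.7 CPM per kb for *Gcnt7*.

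The levels of *Gcnt7* were set beside those of cell type markers. The summed level of 5 markers of mature OSNs (*Omp*, *Cnga2*, *Gnal*, *Adcy3* and *Stoml3*) ranged from 8248 to 10400 CPM in *WT* mice of 8 weeks. In *iRhom2-/-* mice of 8 weeks it ranged from 12270 to 15750 CPM, without overlap, and at 10 weeks it ranged from 12030 to 15410 CPM in *WT* and from 10740 to 13960 CPM in *iRhom2-/-*. Over the 24 libraries, the level of *Gcnt7* and this sum had a Pearson correlation of 0.642 and a Spearman correlation of 0.636 on the log2 scale, and the Pearson correlation was 0.607 without the 2 libraries farthest from the median of the sum. This is a description, since the points share their library and its scaling. They also include the *WT* mice of 8 weeks, whose low *Gcnt7* chose the gene, so the correlation is not independent of that choice. Fewer cells of a type and less RNA per cell cannot be told apart in bulk tissue.

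Per 1000 CPM of these markers, *Gcnt7* had 3.27 ± 0.537 CPM in *WT* and 5.43 ± 0.927 CPM in *iRhom2-/-* mice of 8 weeks (SD, n = 3 each), a 1.66-fold difference in place of the 2.45-fold difference in CPM. These ranges, 2.87 to 3.88 and 4.87 to 6.50, still did not overlap. The *WT* range of 8 weeks also lay below both groups of 10 weeks. It did overlap the columns that name no mouse, at 3.03 to 4.84 in *WT* and 2.77 to 4.96 in *iRhom2-/-*. On this scale the *WT* mice of 8 weeks had the lowest group mean but were not below all other libraries, as they were in CPM. The summed level of the markers of Bowman's glands, *Bpifb9b* and *Sox9*, also differed at 8 weeks, with 18380 to 58620 CPM in *WT* and 948 to 3870 CPM in *iRhom2-/-*. In those *WT* mice *Bpifb9b* alone held 5.53%, 3.24% and 1.92% of all counts. The sum is thus close to the level of this 1 gene and is not a measure of gland content. Markers of immune cells (*Ptprc*, *Cd68* and *Cd3e*) were summed to 30.1 to 68.0 CPM in *WT* and 16.3 to 28.7 CPM in *iRhom2-/-* of that age. The Bowman's gland sum had a Pearson correlation of -0.527 with *Gcnt7*, a Spearman correlation of -0.584, and a Pearson correlation of -0.676 without the 2 libraries farthest from its median, and the sustentacular sum had a Pearson correlation of 0.541. The part of these cell types in the level of *Gcnt7* was not tested.

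**Figure D3:**
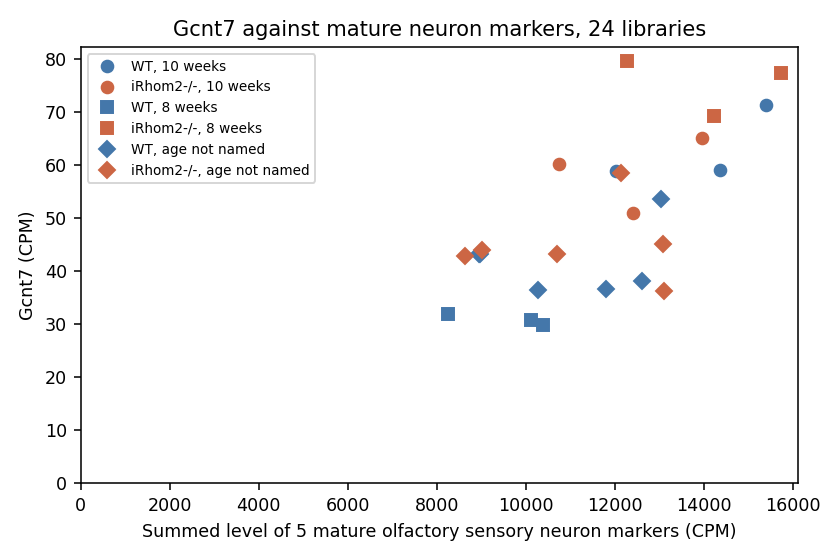
Level of *Gcnt7* (CPM) against the summed level of 5 mature OSN markers (CPM) in 24 libraries, with colour for genotype and shape for age. *WT* mice of 8 weeks lie at the lower left, at 29.9 to 32.0 CPM of *Gcnt7*, and *iRhom2-/-* mice of 8 weeks at the upper right, at 69.4 to 79.8 CPM.

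*Nnt* was set beside the same markers, again with the group that chose it among the libraries. Its Pearson correlation with the mature OSN sum was -0.163. Per 1000 CPM of the sum, the *iRhom2-/-* mice of 10 weeks had 2.83-fold the level of the *WT* mice of 10 weeks. At 8 weeks this ratio was 0.757, against 1.12 in CPM, so its direction turned, and the groups overlapped. The *WT* mice of 10 weeks, at 0.508 to 0.672, stayed below all other libraries. The *WT* columns that name no mouse, including the one at 11.5 CPM, were at 1.29 or more. The lowest *iRhom2-/-* mouse of 8 weeks was at 1.13. Of the 11 marker lists, 2 more are given here with their correlations. The markers of sustentacular cells had a Pearson correlation of -0.487 with *Nnt*, a Spearman correlation of -0.095, and a Pearson correlation of -0.13 without the 2 libraries farthest from the median. Their summed markers (*Cyp2g1*, *Cyp1a2*, *Ermn* and *Muc2*) were at 6575 to 6719 CPM in *WT* and 5635 to 6320 CPM in *iRhom2-/-* mice of 10 weeks, without overlap. Markers of horizontal basal cells (*Krt5*, *Krt14* and *Trp63*) were at 113 to 123 CPM in *WT* and 148 to 163 CPM in *iRhom2-/-* mice of that age, and they had a Pearson correlation of 0.368 with *Nnt*, a Spearman correlation of 0.6, and a Pearson correlation of 0.464 without the 2 farthest libraries. The last 2 of these were larger in size than those of the other 10 lists. Markers of immature OSNs (*Gap43*, *Gng8* and *Stmn2*) also did not overlap at 10 weeks, at 341.5 to 413.2 CPM in *WT* and 414.9 to 477.2 CPM in *iRhom2-/-* mice. Nor did markers of neurons outside the OE (*Slc17a7* and *Gad1*), at 2.473 to 9.54 CPM in *WT* and 0.593 to 1.496 CPM in *iRhom2-/-* mice. The part of these cell types in the level of *Nnt* was not tested.

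*Rtf2*, the gene around *Gcnt7*, lay closer together in the genotypes of 8 weeks. It had 84.1, 82.7 and 81.0 CPM in *WT* and 91.0, 95.9 and 99.4 CPM in *iRhom2-/-* mice of 8 weeks. In a fit over all genes with edgeR's quasi-likelihood test and Benjamini-Hochberg adjustment, this difference was 0.19 on the log2 scale (SE 0.0523, adjusted p = 0.116) and did not pass the threshold of 0.05. Over the 24 libraries, *Rtf2* and *Gcnt7* had a Pearson correlation of 0.546, which was 0.44 without the 2 libraries farthest from the median of *Rtf2*.

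The genes around the 2 loci were compared in the same way, to ask whether their differences went with those of *Nnt* or *Gcnt7*. Within 1 Mb of *Nnt*, 0 of 12 tested genes passed at 10 weeks, beside 0.133% of all genes tested, with 0 at an unadjusted p under 0.05 and 0 called by DESeq2. Here and below, the share of all genes at an unadjusted p under 0.05 is not given, so such counts show no excess. The 3 nearest tested genes above it were *Paip1* (19.6 kb away, a translation factor that binds the poly(A)-binding protein) at -0.02 (SE 0.0915), *4833420G17Rik* (53.8 kb) at 0.05 (SE 0.139) and *Gm9752* (64.8 kb) at 0.32 (SE 0.338) on the log2 scale, against 1.33 for *Nnt*. Below it only *Fgf10* (543 kb), a growth factor, and *Mrps30* (948 kb), of the mitochondrial ribosome, were tested in the window, at -0.17 (SE 0.141) and -0.14 (SE 0.116). All 12 genes lay between -0.72 and 0.83, below the difference of *Nnt*.

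Within 1 Mb of *Gcnt7*, 0 of 13 tested genes passed at 8 weeks, beside 1.4% of all genes tested, with 2 at an unadjusted p under 0.05 and 0 called by DESeq2. *Cass4* (16.6 kb below, an adaptor of the Cas family) was at -0.53 (SE 0.398), *Cstf1* (67.9 kb, a subunit of the cleavage stimulation factor) at 0.06 (SE 0.0810) and *Aurka* (79.8 kb, a mitotic kinase) at 0.12 (SE 0.182). Above *Gcnt7*, the pseudogene *Gm14303* (50.9 kb) was at 0.25 (SE 0.146), *Tfap2c* (91.0 kb, a transcription factor) at -0.71 (SE 0.244) and *Bmp7* (409 kb, a growth factor) at 0.10 (SE 0.101). Over the window, values lay between -1.73 and 0.25, against 1.29 for *Gcnt7*. The lowest was that of *Zbp1* (SE 0.895, adjusted p = 0.328 by edgeR), larger in size than that of *Gcnt7* and of the other sign.

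**Figure D4:**
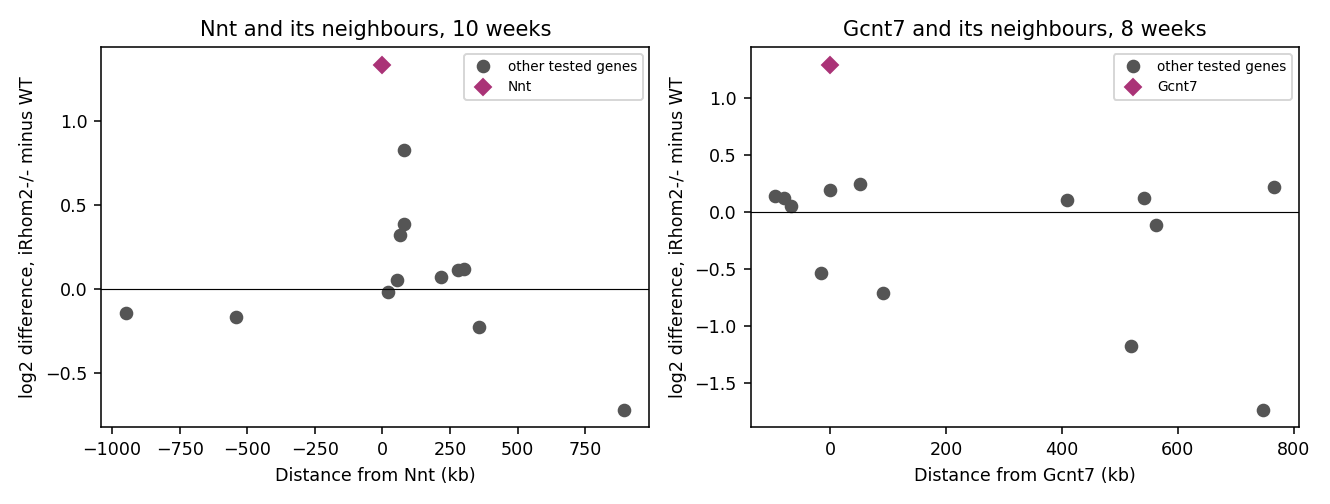
Log2 difference (*iRhom2-/-* minus *WT*) of the tested genes within 1 Mb, as fitted by edgeR, against their distance in kb from *Nnt* at 10 weeks (left) and *Gcnt7* at 8 weeks (right); the diamonds are the log2 ratios of mean CPM of *Nnt*, 1.33, and *Gcnt7*, 1.29. No other gene in either window is as high as the diamond, but *Zbp1*, at -1.73 near *Gcnt7*, has a difference larger in size.

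In the other comparisons of genotype, 0 genes around either locus passed in edgeR, while counts by DESeq2 and by unadjusted p varied. In the columns that name no mouse, where 0.276% of all genes tested passed, 0 of 11 genes passed around *Nnt* and 0 of 13 around *Gcnt7*, with 1 and 3 at an unadjusted p under 0.05. DESeq2 called 0 and 1 of them, beside 2.305% of the genes to which it gave an adjusted p. Over all 24 columns with the set of libraries as a term, where 1.18% of genes passed, 0 of 11 and 0 of 12 passed, with 2 and 2 at an unadjusted p under 0.05. DESeq2 called 0 and 1 of these, beside 2.35% of the genes to which it gave an adjusted p. Around *Nnt* at 8 weeks, 0 of 11 passed in edgeR, beside 1.4% of all genes tested, with 3 at an unadjusted p under 0.05. DESeq2 called 3, beside 7.21% of the genes to which it gave an adjusted p. By edgeR the 3 smallest p-values were those of *Fgf10* at -0.52 (SE 0.107, adjusted p = 0.0656), *Ccl28* at -1.35 (SE 0.286, adjusted p = 0.0697) and *Tmem267* at -0.85 (SE 0.236, adjusted p = 0.12). *Nnt* itself was at 0.16 in this comparison. Around *Gcnt7* at 10 weeks, 0 of 13 passed, with 1 at an unadjusted p under 0.05 and 0 called by DESeq2.

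*WT* mice of 10 and 8 weeks differed in far more genes, with 33.6% of all genes tested past the threshold. Around *Nnt*, 5 of 11 genes passed, 1 higher at 10 weeks and 4 lower. *Mrps30* rose by 0.72 (SE 0.104, adjusted p = 0.00387), while *Gm9752* fell by 1.53 (SE 0.349, adjusted p = 0.0153) and *Tmem267* fell by 1.5 (SE 0.233, adjusted p = 0.00485) on the log2 scale by edgeR. The nearest gene, *Paip1*, was at 0.00 (SE 0.0666, adjusted p = 0.978), and *Nnt* had a difference of -1.03. Around *Gcnt7*, 6 of 12 genes passed, 5 higher at 10 weeks and 1 lower. *Gm14303* rose by 2.58 (SE 0.134, adjusted p = 0.00017) and *Rtf2* by 0.45 (SE 0.106, adjusted p = 0.0174), while *Tfap2c* fell by 0.69 (SE 0.171, adjusted p = 0.02). *Gcnt7* itself had a difference of 1.03, and age and submission cannot be told apart in any of these values. Without the third *WT* mouse of 10 weeks the counts were 2 around *Nnt* and 1 around *Gcnt7*, and without the first *WT* mouse of 8 weeks they were 6 and 7.

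Enzymes that make NADPH or remove peroxide were compared as the pathway of *Nnt*. Of 24 such genes, 0 passed between genotypes at 10 weeks, the comparison in which *Nnt* was low in *WT*, with 2 at an unadjusted p under 0.05 and 0 called by DESeq2, and their median difference was 0.03 on the log2 scale, beside 0.01 over all genes tested. The smallest p-values were those of *Me1*, the cytosolic malic enzyme, at -0.37 (SE 0.105, adjusted p = 0.437 by edgeR), and *Aldh1l2*, which makes NADPH from 10-formyltetrahydrofolate in mitochondria, at 1.65 (SE 0.714, adjusted p = 0.641 by edgeR). At 8 weeks, 1 of 24 passed, beside 1.4% of all genes tested, and 4 were at an unadjusted p under 0.05. This was *Aldh1l2*, at 19.3, 16.4 and 9.55 CPM in *WT* and 4.60, 3.40 and 3.92 CPM in *iRhom2-/-*. It fell by 1.94 on the log2 scale (SE 0.277, adjusted p = 0.0311 by edgeR), and it passed in 8 of 11 alternatives but not without the second *WT* mouse (adjusted p = 0.105), the second *iRhom2-/-* mouse (adjusted p = 0.152) or the third *iRhom2-/-* mouse (adjusted p = 0.16).

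*Aldh1l2* varied within other groups too: at 10 weeks it was at 2.22, 4.41 and 2.60 CPM in *WT* and at 4.16, 21.5 and 3.19 CPM in *iRhom2-/-*. The summed Bowman's gland markers moved with it at 8 weeks, at 18380 to 58620 CPM in *WT* and 948 to 3870 CPM in *iRhom2-/-*, and *Bpifb9b* alone took 5.53%, 3.24% and 1.92% of counts in the *WT* mice of 8 weeks, in the order of *Aldh1l2*. The high value at 10 weeks is that of the library with 13.6% of its counts on *Bpifb9b*, and the part of gland tissue was not tested. The difference between the 10-week and the 8-week difference, an interaction fitted in the 12 named mice, was 3.59 (SE 0.863, adjusted p = 0.202 by edgeR). It did not pass, and 0.00999% of all genes tested passed for this interaction. In the columns that name no mouse and over all columns, 0 of 24 passed, with 4 and 1 at an unadjusted p under 0.05. DESeq2 called 1 and 0 of the list, beside 2.305% and 2.35% of the genes to which it gave an adjusted p. The smallest p-values were those of *Gpx1*, a glutathione peroxidase, at -0.26 (SE 0.0696, adjusted p = 0.133 by edgeR) in the former and of *Me1* at -0.16 (SE 0.0744, adjusted p = 0.36 by edgeR) in the latter.

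Between *WT* mice of 10 and 8 weeks, the groups in which *Nnt* was low and higher, 8 of the 24 passed, 7 higher at 10 weeks and 1 lower. These were the superoxide dismutases *Sod1* (1.30, SE 0.201) and *Sod2* (0.22, SE 0.0659), the peroxidases *Gpx4* (1.20, SE 0.199) and *Prdx5* (0.51, SE 0.111), the mitochondrial thioredoxin *Txn2* (0.88, SE 0.0905), and the NADPH-making enzymes *Idh2* (0.28, SE 0.0845) and *G6pdx* (0.45, SE 0.0735), all higher, while *Aldh1l2* fell by 2.29 (SE 0.346) on the log2 scale. The median of the list was 0.20, beside -0.01 over all genes tested, and a share of 8 in 24 is near the 33.6% of all genes that passed. Without the second *WT* mouse of 8 weeks 5 of the list passed, and without the second *WT* mouse of 10 weeks 13 passed.

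Genes of O-glycan synthesis and the *Gcnt* family were compared for *Gcnt7*. At 8 weeks, 1 of 20 passed between genotypes, beside 1.4% of all genes tested, and 7 were at an unadjusted p under 0.05. DESeq2 called 4, beside 7.21% of the genes to which it gave an adjusted p. This was *Gcnt2*, which forms the branched I antigen: it was at 177, 201 and 197 CPM in *WT* and at 254, 255 and 261 CPM in *iRhom2-/-* mice, without overlap. It rose by 0.41 on the log2 scale (SE 0.0676, adjusted p = 0.0432 by edgeR), against 1.29 for *Gcnt7*, and was past the threshold in 4 of 11 alternatives, losing it whichever single mouse was left out (adjusted p of 0.0526 to 0.194). The list had a median of -0.05, beside 0.00 over all genes tested, while *Gcnt7* was higher in *iRhom2-/-*. Over all columns, *Gcnt2* was at 0.25 (SE 0.0643, adjusted p = 0.0555 by edgeR), and 0 of 20 passed, with 3 at an unadjusted p under 0.05. There DESeq2 called 1, beside 2.35% of the genes to which it gave an adjusted p.

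At 10 weeks, 0 of 19 genes of this list passed, with 3 at an unadjusted p under 0.05. DESeq2 called 1 of the list, beside 0.905% of the genes to which it gave an adjusted p. *Gcnt3*, a core 2 and core 4 branching enzyme of mucins, was at 43.4, 37.5 and 38.3 CPM in *WT* and 27.9, 23.1 and 30.3 CPM in *iRhom2-/-*. Its groups did not overlap, but the difference of -0.55 (SE 0.123, adjusted p = 0.318 by edgeR) did not pass. In the columns that name no mouse, 0 of 20 passed, with 2 at an unadjusted p under 0.05 and 0 called by DESeq2. Between *WT* mice of 10 and 8 weeks, 7 of 20 passed, 2 higher at 10 weeks and 5 lower, near the share of all genes. *C1galt1*, which makes the core 1 structure, fell by 1.18 (SE 0.23, adjusted p = 0.00917 by edgeR), while its chaperone *C1galt1c1* rose by 0.48 (SE 0.0926, adjusted p = 0.00876 by edgeR). Without the first *WT* mouse of 10 weeks 4 of the list passed, with 9 past it without the second.

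Further genes that differ between C57BL/6J, C57BL/6N or other inbred mice were listed beside *Nnt*. These were *Gabra2*, a GABA receptor subunit lowered by an intronic deletion in C57BL/6J; *Crb1*, which carries the rd8 mutation in C57BL/6N; *Cyfip2*, with a missense variant in C57BL/6N; *Casp4* and *Disc1*, each with a deletion in strains that were widely used for embryonic stem cells; and *Wdfy1*, an endosomal adaptor. Of the 4 or 5 that passed the filter on low counts, 0 passed the test in each of the 4 comparisons of genotype. The shares of all genes that passed were 0.133% at 10 weeks and 1.4% at 8 weeks. They were 0.276% in the columns that name no mouse and 1.18% over all columns. At such shares, 0 of so few genes shows no lack. DESeq2 called 0 of the list, beside 0.905%, 7.21%, 2.305% and 2.35% of the genes to which it gave an adjusted p, in the same order. At an unadjusted p under 0.05 there were 0 at 10 weeks, 0 at 8 weeks, 2 in the columns that name no mouse and 2 over all columns. Between *WT* mice of 10 and 8 weeks, 0 of 5 passed, beside 33.6% of all genes tested. Of these 5, 0 were at an unadjusted p under 0.05 and 0 were called by DESeq2, but 1 passed without the second *WT* mouse of 10 weeks. *Crb1* had 2 to 14 counts and *Disc1* 8 to 43 counts per library, too few to place a library.

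*Casp4*, an inflammatory caspase, was at 1.38 to 4.94 CPM in *iRhom2-/-* and at 2.38 to 6.19 CPM in *WT* libraries, with a difference of -0.45 over all columns (SE 0.189, adjusted p = 0.291 by edgeR). *Cyfip2* was at 137 to 250.4 CPM in *WT* and 165 to 269 CPM in *iRhom2-/-* libraries. *Gabra2* was at 0.0930 to 0.602 CPM in the 12 named mice and at 0.415 to 6.81 CPM in the other columns. Markers of neurons outside the OE (*Slc17a7* and *Gad1*) were summed to 1.69 to 9.54 CPM in the named *WT* mice and to 5.27 to 90.9 CPM in *WT* columns 7 to 12, and in *iRhom2-/-* to 0.593 to 11.4 CPM and 2.59 to 42.7 CPM, and their part in *Gabra2* was not tested. None of these 3 set the *WT* mice of 10 weeks apart as *Nnt* did: all of them overlapped with *iRhom2-/-* mice of the same age.

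*Wdfy1* was lowest in a set of libraries that were all *iRhom2-/-* but did not make up a whole group. The third *iRhom2-/-* mouse of 10 weeks had 30.7 CPM, the first and second *iRhom2-/-* mice of 8 weeks had 47.9 and 50.3 CPM, and *iRhom2-/-* column 10 had 50.7 CPM. The next library, the first *WT* mouse of 10 weeks, was 43.4 CPM higher, at 94.2 CPM, and the highest had 226 CPM. The *iRhom2-/-* mice of 8 weeks thus held 47.9, 50.3 and 149 CPM in 1 group. The low libraries of *Wdfy1* were not the low libraries of *Nnt*, and *WT* column 7 had 185 CPM of *Wdfy1*. Between genotypes of 8 weeks the difference of *Wdfy1* was -0.93 (SE 0.46, adjusted p = 0.308 by edgeR).

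The genes whose log2 CPM ran most like each of the 2 over the 24 libraries were found among 20763 genes, as a description. For *Nnt* they were *Gm21887* (Pearson r = 0.838, chromosome X), *6430571L13Rik* (0.795, chromosome 9), and *Adgrg3* (0.789), *Gm26532* (0.787) and *Scoc* (0.778), which all lie on chromosome 8. None of them lies on chromosome 13. *Scoc*, a coiled-coil protein of the Golgi, was at 17.8, 19.3 and 16.7 CPM in *WT* mice of 10 weeks and at 21.6 to 42.8 CPM in the other 21 libraries.

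*Gm21887*, a coding gene model at the far end of chromosome X (170009659 to 170019281), had 0, 2 and 0 counts in the *WT* mice of 10 weeks, under the limit of 3 counts that a count of 0 allows. In the *iRhom2-/-* mice of 10 weeks it had 479, 383 and 1636 counts, or 14.3, 14.2 and 50.7 CPM. *WT* column 7, the library between the levels of *Nnt*, had 11 counts and 0.373 CPM, the lowest among *WT* columns 7 to 12, the highest of which had 4.84 CPM. *WT* mice of 8 weeks had 1.44, 3.67 and 2.53 CPM and *iRhom2-/-* mice of 8 weeks 8.50, 12.2 and 11.7 CPM. The *WT* libraries with the lowest *Nnt* were thus also those with the lowest *Gm21887*, by the choice of the gene for its likeness. Reads of this model may be shared with near-identical copies, so its counts are uncertain.

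**Figure D5:**
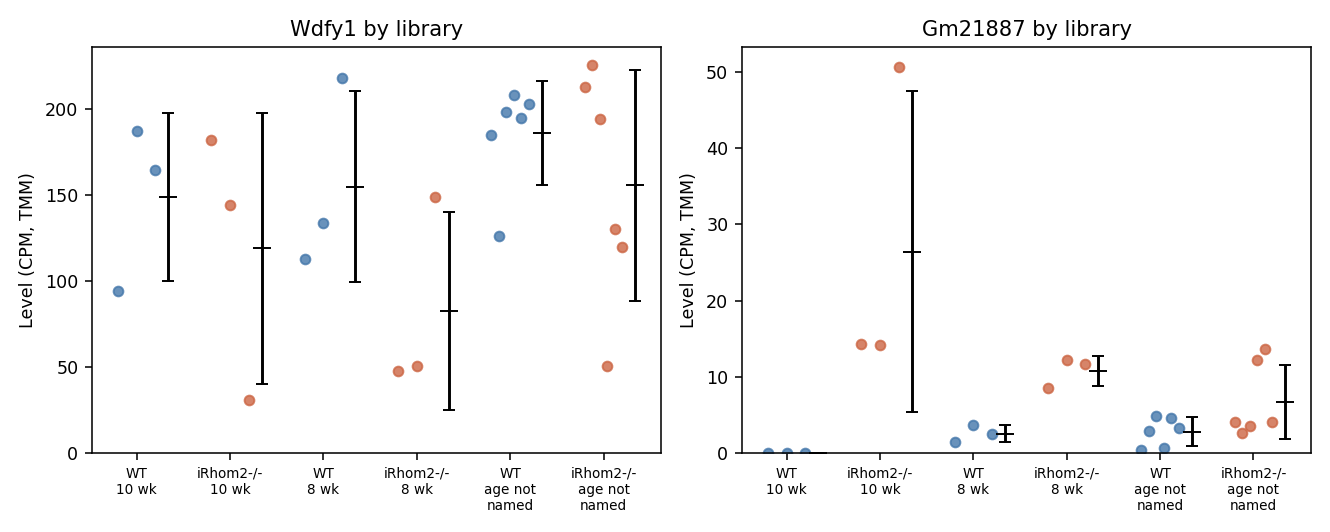
Level in CPM of *Wdfy1* (left) and *Gm21887* (right) in each of 24 libraries, *WT* in blue and *iRhom2-/-* in orange, with the mean and SD of each group in black. *Wdfy1* is at 30.7 to 50.7 CPM in 4 *iRhom2-/-* libraries of 3 groups and at 94.2 CPM or more in the others, and *Gm21887* is at 0 to 0.0634 CPM in *WT* mice of 10 weeks.

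For *Gcnt7* the most alike genes were *Wdpcp* (r = 0.81, chromosome 11), a gene for ciliary assembly, *Olfr1395* (0.796, chromosome 11), *Elmo2* (0.79, chromosome 2), an adaptor in Rac signaling, *Olfr1013* (0.789, chromosome 2) and *Olfr462* (0.781, chromosome 11). The *Olfr* genes encode odorant receptors, which OSNs express. *Elmo2* was at 71.3, 80.4 and 83.5 CPM in *WT* and at 116, 115 and 113 CPM in *iRhom2-/-* mice of 8 weeks, without overlap. *Olfr1395* had mean levels of 2.68 CPM in *WT* and 6.13 CPM in *iRhom2-/-* mice of 8 weeks, and 5.91 and 4.64 CPM at 10 weeks. *Elmo2*, from 165288031 to 165326479, is on the chromosome of *Gcnt7* but outside the window of 1 Mb.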

How the data were processed

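RNA of the whole OE was made into stranded, poly(A)-selected libraries. The authors used nf-core, STAR and GRCm38, and RSEM for the counts. The table the authors deposited holds estimated counts as whole numbers for 45706 genes and 24 libraries, without normalization, beside the authors' fold changes and p-values, which were not used. Of these genes, 45143 have an ID in GENCODE M21, from which positions were taken. GRCm38, RSEM and edgeR are also named in the submitters' processing notes.

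Differences were fitted by edgeR 4.0.16 (under R 4.3.3), with filterByExpr, TMM scaling and the quasi-likelihood test. Adjustment by Benjamini-Hochberg took in every gene tested, and the threshold was 0.05. Groups were fitted in pairs (genotypes of 10 weeks, of 8 weeks, in the columns that name no mouse, over all columns with the set of libraries as a term, and *WT* of 10 against 8 weeks). DESeq2 1.42.0, RLE scaling, other filters, left-out mice and a replicate block were alternatives; the interaction of genotype and age was added after the data were seen. The fits were tested on simulated data. Correlations used log2 CPM with a prior count of 2 (genes alike) or log2(CPM + 1) (markers).

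Replicate numbers pair the mice only if every pair's correlation of deviations is over 0.1; these ran from 0.0108 to 0.216 between genotypes of 10 weeks and from 0.00374 to 0.117 of 8 weeks, so they were not taken as pairs. Replicates are labelled as separate mice, and none of 42 pairs within groups agreed within sampling noise. Totals of 25333822 to 48660394 counts gave 244 to 912 counts of *Nnt* and 1081 to 3846 of *Gcnt7*. A library at 0 is limited to 3 counts. Genes named are both members with every value, the 3 nearest tested genes on each side, genes of the lists past the threshold or else the smallest p-values, all 6 strain genes, the 5 most alike genes and *Rhbdf2*; some list genes past the threshold between *WT* ages are given as counts only, and single libraries were pointed out after their values were seen. *Zbp1*, *Ccl28* and *Tmem267* were named after their values were seen. The members and lists were chosen with earlier results of these data known.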

Additional observations from a re-analysis of the deposited data

Results flagged for a closer look

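Among *WT* columns 7 to 12, 3 genes of the strain list had 1 library far from the other 5 by Dixon's test. *Gabra2* was at 6.81 CPM in *WT* column 11, where the next library had 2.44 CPM. The same library held 30.6 CPM of *Slc17a7* and 60.4 CPM of *Gad1*, markers of neurons outside the OE, and their part was not tested. *Cyfip2* was at 137 CPM in *WT* column 9, below the other 5 at 159 CPM or more. *Wdfy1* was at 126 CPM in *WT* column 8, below the other 5 at 185 CPM or more. Of 16 groups of 6 libraries checked, 3 stood out in this way, where chance gives about 1 in 20. *Nnt* in *WT* column 7, with 11.5 CPM, was not among them.

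*Tfap2c*, near *Gcnt7*, had opposite differences between genotypes at the 2 ages, without overlap in either, but neither passed the threshold. They were 0.57 (SE 0.208, adjusted p = 0.571 by edgeR) at 10 weeks and -0.71 (SE 0.244, adjusted p = 0.177 by edgeR) at 8 weeks. Here and above, the share of all genes whose groups did not overlap is not given, so a lack of overlap shows no excess. *Tfap2c* was at 3.98, 5.36 and 4.93 CPM in *WT* and 6.22, 8.42 and 6.57 CPM in *iRhom2-/-* mice of 10 weeks. At 8 weeks it was at 7.47, 7.60 and 7.99 CPM in *WT* and 5.37, 5.78 and 3.10 CPM in *iRhom2-/-*. The difference between the ages was 1.28 on the log2 scale (SE 0.327, unadjusted p = 0.00209, adjusted p = 0.212 by edgeR) and did not pass the threshold. Of 23 genes compared for this, *Tfap2c* was the 1 found.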

How the results depend on the processing

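In the 3 comparisons recomputed (genotypes of 10 weeks, genotypes of 8 weeks, and *WT* of 10 against 8 weeks), the log2 differences of *Nnt* and *Gcnt7* kept their direction under scaling by library totals, under RLE scaling and with each mouse left out. Under scaling by library totals, *Gcnt7* between *WT* of 10 and 8 weeks moved to 0.90. With single mice left out, *Nnt* ranged from 1.27 to 1.40 between genotypes of 10 weeks, from 0.11 to 0.24 of 8 weeks, and from -1.09 to -0.95 between *WT* of 10 and 8 weeks. *Gcnt7* ranged from -0.18 to -0.01, from 1.25 to 1.35, and from 0.94 to 1.08.

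Numbers of genes called over the whole table depended on the processing, and the cause was not tested. The main counts were 25 between genotypes of 10 weeks, 270 of 8 weeks, 51 in the columns that name no mouse, 220 over all columns and 6426 between *WT* of 10 and 8 weeks. DESeq2 called 189, 1453, 494 and 518 in the comparisons of genotype. Without a filter on low counts, 39 were called at 10 weeks. With single mice left out, counts ranged from 1 (without any one *WT* mouse) to 70 (without the third *iRhom2-/-* mouse) at 10 weeks, from 37 (without the second *WT* mouse) to 367 (without the first *iRhom2-/-* mouse) at 8 weeks, and from 2457 (without the third *WT* mouse of 10 weeks) to 7650 (without the second) between *WT* ages. Over all columns, 63 were called without the term for the set of libraries. With the replicate number as a block, which does not pair these mice, 463 were called at 8 weeks and 13 in the 12 named mice. The samples share only a number; the block gave 19 at 10 weeks and 4839 between *WT* ages. The other alternatives kept these counts within 1.5 times. Depth limited *Crb1* and *Disc1*, not *Nnt* or *Gcnt7*.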
